A study of Mus musculus with 4 samples.

Results

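This account covers 10 genes of the DNA damage checkpoint, which were chosen by name from 24340 genes in the deposited expression table. They are the sensor kinases Atm and Atr, the mediators Clspn, Topbp1, Mdc1 and H2afx, the effector kinases Chek1, Chek2 and Wee1, and the transcription factor Trp53. All 10 were found, and all 10 were among the 10471 genes that averaged at least 1 FPKM (fragments per kilobase of transcript and 1000000 fragments) over the libraries. RNA depleted of ribosomal RNA was sequenced from mouse bone marrow cells sorted as negative for lineage markers and positive for Kit, a sort for immature cells. The mice were of strain C57BL/6 and all carried JAK2V617F, an activated form of the kinase JAK2. The groups were Tet2-/- cells with ruxolitinib, Tet2-/- control cells, Tet2+/+ cells with ruxolitinib and Tet2+/+ control cells, called knockout and wild type here. Ruxolitinib inhibits JAK1 and JAK2; its dose and time, the age of the mice, the driver of the Tet2 deletion and any pooling of animals are not given in the labels used here. Each group had 1 library, so no value has an error, no difference has a replicate check and no test between groups was made.

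Tet2 oxidises methylated cytosine in DNA, and the title of the study asks about DNA repair and sensitivity to PARP inhibitors when it is lost. The checkpoint links damage to the cell cycle. ATM responds mainly to double-strand breaks and ATR to single-stranded DNA at stalled replication forks. ATM phosphorylates CHK2 and ATR phosphorylates CHK1, and these effector kinases hold the cell cycle, in part by restraining the CDC25 phosphatases that WEE1 opposes. Either arm can stabilise p53. Cycling blood progenitors rely on the ATR and CHK1 arm in unperturbed S phase too, and several genes of that arm are known E2F targets whose transcripts peak around the start of S phase.

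Promoter sequence is shown first, as a description of the letters only. Wee1 and H2afx had no promoter window, so no sequence is shown for them. RefSeq windows from 250 bases before to 50 bases after the transcription start (GRCm38.p6) were found for 8 of the 10 genes. Each was searched on both strands for an E2F core, spelled TTCCCGC, with the accepted variants being TTCGCGC, or alternatively TTGGCGC, or else the form TTGCCGC. Matches on opposite strands can overlap. The core was present in 6 of the 8 windows. It was present in 9.57% of 32817 windows of all genes and in 17.4% of 10108 windows of measured genes. The 30-base stretches around each match run 5′ to 3′ on the gene's strand, with the core in capitals; overlapping cores form 1 run of capitals.
Clspn, chr4:126556990-126557019, plus strand: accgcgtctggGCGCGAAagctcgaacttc
Chek1, chr9:36726609-36726638, minus strand: cagcatgacgcaagcaggttttgGCGGGAA
Topbp1, chr9:103305184-103305213, plus strand: cgtccgctcggTTGGCGCGAAagtcggttc
Chek2, chr5:110839820-110839849, plus strand: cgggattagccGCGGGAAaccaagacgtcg
Mdc1, chr17:35841358-35841387, plus strand: tggaaatctgcGCGGGAAgtagtccgtgga
Mdc1, chr17:35841472-35841501, plus strand: cttcagcctgtTTCCCGCcggtagccgcac
Atm, chr9:53536638-53536667, minus strand: tagagccggaaGCGGGAAggcgtgcgtaca

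The Clspn, Chek1 and Atm cores lay after the start, beginning at positions 22, 44 and 16. In Topbp1 a pair of overlapping cores began at positions -132 and -129. The Trp53 and Atr windows held no core. For Atr the 250 bases before the RefSeq start ended at 95857596 on chromosome 9, while the deposited gene begins at 95855418. Sequence around that other start was not searched. Genes with and without a core overlapped in their log2 ratio of FPKM + 1, knockout over wild type without drug. With a core it was 0.86 for Clspn, 0.69 for Chek1, 0.52 for Topbp1, 0.16 for Atm, 0.14 for Mdc1 and 0.07 for Chek2. Without one it was 0.30 for Atr and -0.06 for Trp53. Any link between a core and these ratios was not tested. Trp53 is shown as a window without a core, from chr11:69580109-69580358 on the plus strand, 250 bases before its start.
Trp53: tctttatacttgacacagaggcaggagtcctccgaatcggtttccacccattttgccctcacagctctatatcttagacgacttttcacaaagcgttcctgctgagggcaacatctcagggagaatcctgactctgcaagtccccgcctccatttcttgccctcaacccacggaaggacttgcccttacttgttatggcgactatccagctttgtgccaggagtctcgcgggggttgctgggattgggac

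The CCAAT box, the site of the factor NF-Y, was searched as CCAAT and had 2 matches each in the Clspn and Chek2 windows and 1 each in those of Atm, Mdc1 and Trp53. It was present in 37.4% of all windows. The CHR element of mitotic genes, searched as TTTGAA or TTCGAA, matched only in the Atr window among the 8 and in 19.2% of all windows. The form of the E2F core was TTCCCGC in Chek1, Chek2, Mdc1 and Atm, whereas Clspn held TTCGCGC, and Topbp1 held that form together with an overlapping TTGGCGC. A match describes the letters and is neither a measured site nor a cause.

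**Figure D1:**
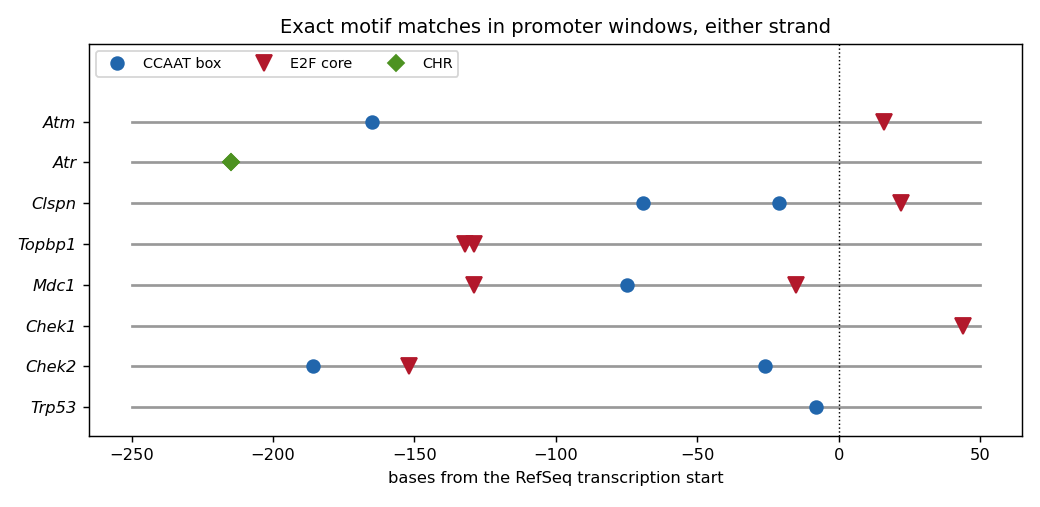
Each line is the promoter window of 1 gene, from 250 bases before to 50 bases after the RefSeq transcription start, and the horizontal axis gives the distance from that start in bases. Triangles are E2F cores, circles CCAAT boxes and diamonds CHR elements on either strand; 6 of the 8 windows hold an E2F core, and those of Trp53 and Atr do not.

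The depth was estimated from the steps between low FPKM values, at about 51.9 and 54.8 (in units of 1000000 fragments) for the knockout ruxolitinib and control libraries and 48.0 and 44.5 for the wild-type ones, any scaling by Cuffdiff included. On the longest coding transcript of each member this would correspond to roughly 770 to 15690 fragments, the fewest being those of Chek1 in the wild-type control. Genotype cannot be told apart from the sex of the animals, since the X-linked Xist RNA was at 62.2 and 53.2 FPKM in the knockout libraries and 0.0309 and 0.0241 in the wild-type ones. Tet2 was at 4.39 and 3.62 FPKM in the knockout ruxolitinib and control libraries and at 5.05 and 4.69 in the wild-type ones, and a level over the whole gene does not test a deleted exon. The sorted cells carried mast cell transcripts. With the ruxolitinib library given before the control one, the 13 mast cell markers summed to 23160 and 19380 FPKM in knockout and 31160 and 27580 in wild type, with Cpa3 listed at 0 throughout. Much of that difference came from Cma1, at 10118 and 8289 FPKM in knockout against 15834 and 13677 in wild type, and Fcer1a, at 3648 and 3451 against 6008.5 and 5594. Of the 12 measured mast cell markers 10 had negative ratios without drug and 6 with ruxolitinib, with medians of -0.22 and -0.06. Mrgprb2 ran the other way, at 29.6 and 10.01 FPKM in knockout against 1.52 and 0.769 in wild type, and so did Tpsab1, at 42.9 and 52.0 against 10.03 and 23.3. The sums of the 12 granulocyte-monocyte markers, of which 2 were measured, were 37.2 and 32.5 FPKM in knockout against 112.9 and 93.4 in wild type. Ctsg made up most of them, at 27.3 and 27.1 against 108.2 and 90.4 FPKM, while Mpo was at 1.31 and 1.13 against 0.0445 and 0.0380, and Lyz2 at 6.61 and 2.36 against 4.15 and 2.41. The sums in the same order were, for the 7 megakaryocyte markers, 559.6 and 466.9 against 773 and 694 FPKM, and for the 10 erythroid markers, 171.6 and 190.3 against 157.3 and 177. The 8 stem and progenitor markers summed to 509 and 359 FPKM in knockout and 481 and 354 in wild type. No B cell or T and NK cell marker was measured, and their sums did not exceed 0.391 and 0.608 FPKM. The part of these markers, of sex and of cell makeup in the differences between genotypes was not tested, and fewer cells of a type cannot be told apart from less RNA per cell.

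The 10 genes spanned a wide range of levels. Trp53 (chromosome 11, 69580359 to 69591873, mm10) was the most abundant in each library, between 92.8 and 110.4 FPKM. Topbp1 (chromosome 9, 103305327 to 103350427) followed at 39.0 to 60.3 FPKM, then H2afx (chromosome 9, 44334715 to 44336073) at 38.7 to 55.5 and Chek2 (chromosome 5, 110840017 to 110874133) at 28.5 to 35.7. This order of the first 4 was the same in all 4 libraries, although Topbp1 and H2afx lay within 2 FPKM of each other in the knockout and wild-type control libraries. Clspn (chromosome 4, 126556980 to 126593903), Mdc1 (chromosome 17, 35841498 to 35859670) and Wee1 (chromosome 7, 110122059 to 110143299) lay between 10.8 and 23.3 FPKM. The lowest were Atm (chromosome 9, 53437122 to 53536671), Atr (chromosome 9, 95855418 to 95951644) and Chek1 (chromosome 9, 36708482 to 36726658), between 4.79 and 8.79 FPKM. The order changed with genotype at 2 places. Clspn ranked above Mdc1 in both knockout libraries and below it in both wild-type libraries, and Chek1 ranked above Atr and Atm in both knockout libraries and last in both wild-type libraries. Both places were close in the wild-type ruxolitinib library. There Clspn was at 14.1 FPKM against 14.3 for Mdc1, and Chek1 at 5.60 against 5.63 for Atm. With no spread within a group, it cannot be said whether neighbours such as Atm and Atr differ.

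**Figure D2:**
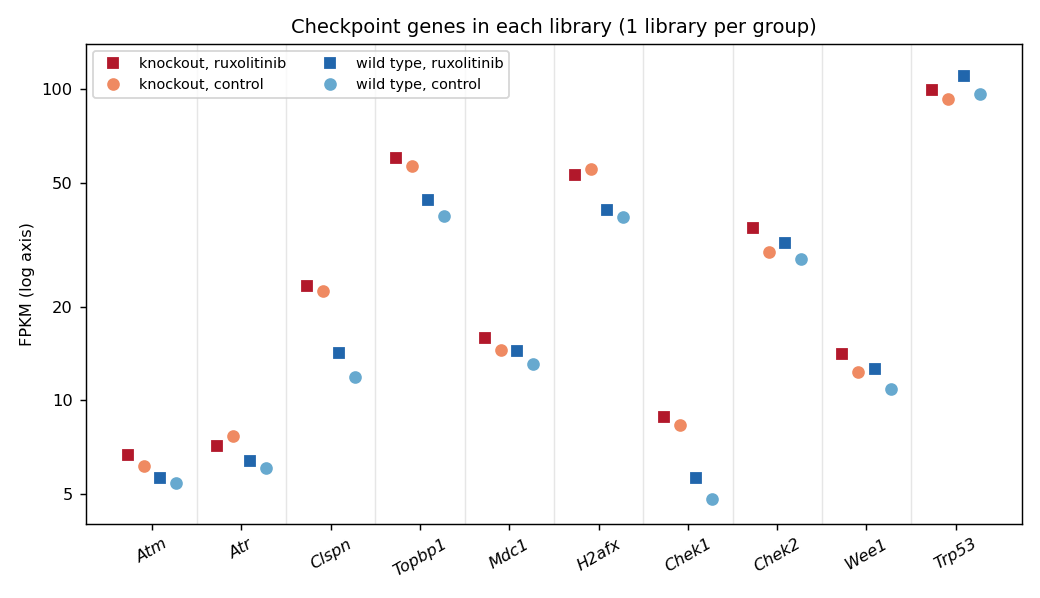
FPKM on a log axis for each of the 10 checkpoint genes, with 1 point per library: knockout with ruxolitinib, knockout control, wild type with ruxolitinib and wild-type control from left to right. Clspn, Topbp1, H2afx and Chek1 show the widest gap between the knockout and the wild-type points, and the Trp53 points overlap.

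Without drug, Clspn and Chek1 of the ATR arm were at least 1.5-fold higher in the knockout than in the wild-type library, with Topbp1 and H2afx next, while Chek2 and Trp53 lay close to equal. All log2 ratios, and the 1.5-fold rule, use FPKM + 1, and so understate how far low genes differ. Of the 10 genes, 2 passed that rule upward and 0 downward. Among all measured genes 3.88% were that far higher and 5.06% that far lower. With values rescaled to sum to 1000000 per library (TPM), the shares were 8.33% and 4.27%. Those shares are of the 11098 genes averaging at least 1 TPM, with 1 still added to each value. On deposited values the members had a median log2 ratio of 0.24 and 9 of 10 ratios were positive. The median of all measured genes was 0.00 and 50.4% of them were positive. Rescaling to TPM shifted all genes up by about 0.14 in this comparison and by about 0.13 in the one with ruxolitinib, and the members' medians less that shift were 0.25 and 0.19.

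Clspn encodes claspin, the adaptor that brings CHK1 to ATR at stalled forks. It was at 22.4 FPKM in the knockout control and 11.9 in the wild-type control, a log2 ratio of 0.86, and at 23.3 against 14.1 FPKM with ruxolitinib, a ratio of 0.68. Both knockout libraries lay above both wild-type libraries. Its ratio exceeded those of 98.4% of measured genes without drug and 97.9% with it.

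Chek1 encodes CHK1, the effector kinase of the ATR arm. It was at 8.34 FPKM in the knockout control against 4.79 in the wild-type control, and at 8.79 against 5.60 FPKM with ruxolitinib. The log2 ratios were 0.69 and 0.57, so the second fell just short of 1.5-fold, and again the groups did not overlap. Clspn and Chek1 kept nearly the same proportion to each other, with Clspn at 2.65 and 2.69 times Chek1 in the knockout ruxolitinib and control libraries and 2.52 and 2.48 times in the wild-type ones. Such a proportion within a library does not depend on how libraries were scaled.

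Topbp1 encodes the protein that activates ATR, and H2afx the histone variant whose phosphorylated form marks chromatin around breaks. Topbp1 was at 56.5 FPKM in the knockout control and 39.0 in the wild-type control, a log2 ratio of 0.52, and at 60.3 against 43.9 with ruxolitinib, a ratio of 0.45. H2afx was at 55.5 against 38.7 FPKM without drug, a ratio of 0.51, and at 53.2 against 40.8 with it, a ratio of 0.37. For both genes the knockout libraries lay above the wild-type libraries, and neither reached 1.5-fold on deposited values. Rescaled to TPM without removing the shift, the ratios without drug were 0.68 and 0.66 and both passed.

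The sensor kinases themselves differed less. Atr was at 7.64 FPKM in the knockout control library against 6.03 in the wild-type control, a log2 ratio of 0.30, and at 7.09 against 6.36 with ruxolitinib, a ratio of 0.14. Atm was at 6.15 against 5.39 FPKM without drug and 6.65 against 5.63 with it, with ratios of 0.16 and 0.21. Knockout and wild-type values did not overlap for either gene, yet the gaps were small. Relative to its sensor kinase, Chek1 was higher in knockout cells, at 1.24 and 1.09 times Atr in the ruxolitinib and control libraries against 0.881 and 0.795 times in wild type. Chek2 was at 5.37 and 4.87 times Atm in knockout and 5.70 and 5.29 times in wild type. Exons of Atr overlap 726 bases of the antisense RNA 1700065D16Rik, which did not exceed 0.191 FPKM.

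Mdc1, the scaffold that binds phosphorylated H2AX, was at 14.5 FPKM in the knockout control and 13.1 in the wild-type control, and at 15.8 against 14.3 with ruxolitinib, with log2 ratios of 0.14 and 0.13, and its genotypes came close without overlapping. Chek2, the effector kinase of the ATM arm, was at 29.9 against 28.5 FPKM without drug and 35.7 against 32.1 with it, with ratios of 0.07 and 0.15. Wee1, the kinase that keeps CDK1 inactive, was at 12.3 against 10.8 and 14.0 against 12.6 FPKM, with ratios of 0.17 and 0.15. For Chek2 and Wee1 the knockout control lay below the wild-type ruxolitinib library, so the genotypes overlapped. Wee1 was therefore lower relative to Chek1 in knockout cells, at 1.60 and 1.48 times Chek1 in the ruxolitinib and control libraries against 2.24 and 2.26 times in wild type.

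Trp53 was the one member with negative ratios on deposited values. It was at 92.8 FPKM in the knockout control and 96.9 in the wild-type control, a log2 ratio of -0.06, and at 99.2 against 110.4 with ruxolitinib, a ratio of -0.15. The genotypes overlapped, and rescaled to TPM the ratios were 0.09 and -0.02, so the sign without drug depends on the scaling. On both scales the Trp53 ratios lay below the median of all genes, which in TPM was 0.14 without drug and 0.13 with ruxolitinib. Its highest library exceeded its lowest by 1.19 times, the narrowest range of the 10, against 1.96 times for Clspn and 1.84 times for Chek1.

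**Figure D3:**
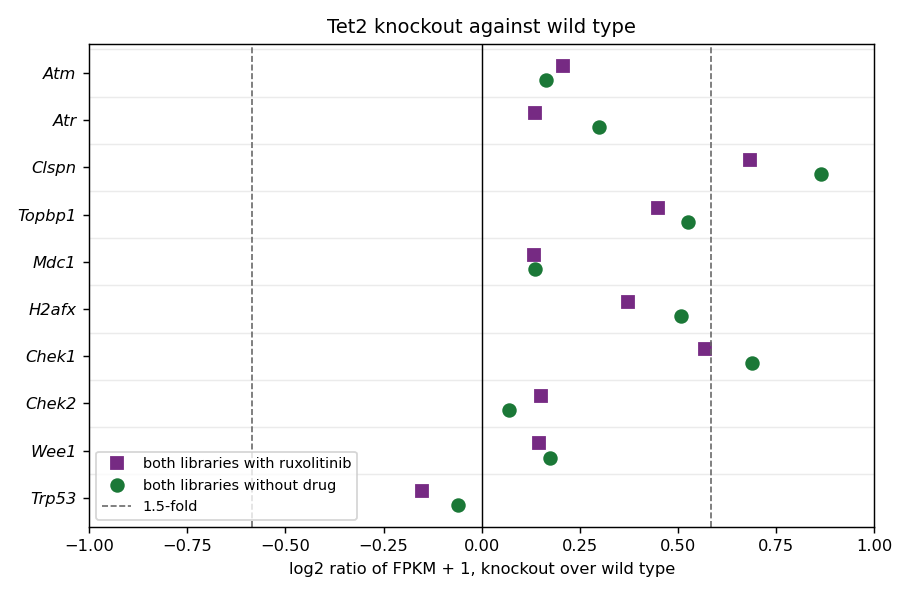
Log2 ratio of FPKM + 1, knockout over wild type, for each checkpoint gene, from the pair of libraries with ruxolitinib (squares) and the pair without drug (circles). The dashed lines mark 1.5-fold. Clspn passes it in both pairs at 0.68 and 0.86, and Chek1 without drug at 0.69. Trp53 lies below 0 on these deposited values. Rescaled to TPM, Trp53 lies at 0.09 without drug, where the median of all genes was 0.14.

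With ruxolitinib in both libraries, 1 of the 10 genes, Clspn, passed 1.5-fold upward in knockout and 0 passed downward. Among all measured genes 2.97% were that far higher and 3.34% that far lower. Rescaled to TPM, the shares were 6.38% and 3.05% of the 11098 genes averaging at least 1 TPM. On deposited values the members' median was 0.18, and 9 of 10 ratios were positive. The median of all measured genes was 0.00 and 50.2% of them were positive. This pair of libraries is separate from the pair without drug, but whether the animals were separate is not in the labels. Over the 4 libraries, 7 of the 10 genes had both knockout values above both wild-type values and 0 had both below, while 28.2% of measured genes did so in each direction.

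The authors' deposited table, which compares library with library and cannot speak for the genotypes, marked the same 4 members in both pairs. There the authors' deposited table had q-values without drug of 0.000746 for Clspn, Chek1, Topbp1 and H2afx, and log2 fold changes, with no pseudocount, of 0.92, 0.80, 0.54 and 0.52. With ruxolitinib the q-values in the authors' deposited table were 0.000746 for Clspn and Chek1, 0.00813 for Topbp1 and 0.0427 for H2afx. For Atr the authors' deposited table had a q-value of 0.0742 without drug and 0.560 with it. Of the genes tested in the authors' deposited table, 19.1% were marked without drug and 13.6% with ruxolitinib.

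S phase markers moved with these genes. All 18 S phase and replication markers had positive ratios in knockout against wild type in both pairs, 15 of them at 1.5-fold or more without drug and 11 with ruxolitinib, and 0 as far lower. Their medians were 0.80 and 0.61, and their summed levels were 1287 and 1260 FPKM in the knockout ruxolitinib and control libraries against 857 and 752 in wild type. Mcm5, a subunit of the replicative helicase, was at 79.4 FPKM in the knockout control against 42.9 in the wild-type control. The 15 mitosis markers had medians of 0.46 and 0.41, with Mki67, the proliferation antigen, at 51.5 against 37.1 FPKM without drug.

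Set against the S phase median without drug, Clspn was higher by 0.07 and Chek1 lower, at -0.11, on the log2 scale, while Topbp1 and H2afx lay at -0.27 and -0.29. The other 6 members lay between -0.86 and -0.50. With ruxolitinib the values were 0.07 for Clspn, -0.04 for Chek1, -0.16 for Topbp1 and -0.24 for H2afx. Clspn and Chek1 thus differed between genotypes by about as much as the S phase markers did, and Atm, Atr, Chek2, Wee1, Mdc1 and Trp53 by less than that median in both pairs. The part of the cell cycle in the checkpoint differences was not tested.

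The genes whose profile over the 4 libraries was nearest to that of Chek1, by Euclidean distance of centred log2(FPKM + 1), were 4930579G24Rik, Rfc3, Bhlhb9, Pkmyt1 and Rpa2, at distances of 0.02 to 0.04. Rfc3, a subunit of the replication clamp loader, was at 39.1 and 36.4 FPKM in the knockout ruxolitinib and control libraries and 25.7 and 22.7 in wild type. For Trp53 the nearest were Gtf2ird2, Fth1, Cmtm7, Tbc1d5 and Tle6, at 0.01 to 0.02. These were picked from 9934 measured protein-coding genes over only 4 libraries, so near profiles are easily found.

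Other genes of the checkpoint were described in fixed lists. Of 13 measured sensors and loaders, which detect single-stranded DNA or double-strand breaks or load the 9-1-1 clamp, 1 passed 1.5-fold upward in knockout without drug and 0 downward, and the median log2 ratio was 0.33. That gene was Rpa2, a subunit of the protein that coats single-stranded DNA, at 45.8 against 28.3 FPKM. Etaa1, the other known activator of ATR, was at 6.34 against 4.12 FPKM. At the other end, the clamp loader gene Rad17 was at 17.0 against 15.6 FPKM and Prkdc, the kinase of end joining, at 3.09 against 3.34. With ruxolitinib the list had a median of 0.18 and 0 genes past 1.5-fold.

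Of 14 mediators and ubiquitin factors, 3 passed 1.5-fold upward without drug and 0 downward, and the median was 0.26. They were Timeless and Tipin, partners in the fork protection complex that works with claspin, and Rif1, which limits resection at breaks. Timeless was at 12.4 FPKM in the knockout control against 7.10 in the wild-type control, and at 15.4 against 9.19 with ruxolitinib, the one gene of the list past 1.5-fold there. Tipin was at 81.9 against 50.2 FPKM without drug and 80.5 against 56.5 with it. Trp53bp1, which binds damaged chromatin in the ATM arm, was at 8.83 against 8.82 FPKM without drug, and the deubiquitinase subunit Bre at 41.1 against 47.4. With ruxolitinib the median of the list was 0.16.

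Of 12 cell-cycle targets of the checkpoint, 3 passed 1.5-fold upward without drug and 0 downward, and the median was 0.38, while with ruxolitinib 0 passed and the median was 0.36. The phosphatase Cdc25a, which CHK1 marks for destruction, was at 14.1 against 8.39 FPKM without drug and 12.1 against 8.64 with it. Cdc7, the kinase that fires replication origins, was at 13.4 against 7.92 FPKM, and Pkmyt1, the membrane-bound relative of WEE1, at 23.7 against 14.8. The kinases Tlk1 and Tlk2 were near equal, at 27.4 and 10.4 FPKM in knockout without drug and 26.5 and 10.2 in wild type.

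The p53 lists had medians near 0, with single genes apart on both sides. The 9 p53 regulators and phosphatases had medians of -0.02 and -0.02 without and with ruxolitinib, or 0.13 and 0.11 rescaled to TPM, close to the shift of all genes, and 0 passed 1.5-fold either way. Mdm2, the ligase that degrades p53, was at 44.1 FPKM in the knockout control and 53.2 in the wild-type control. Ppm1d, a phosphatase that resets the checkpoint, was at 8.35 against 6.28. The 21 measured p53 targets, Mdm2 among them again, had medians of -0.06 and -0.02, with 1 gene past 1.5-fold upward without drug and 2 with ruxolitinib, and 0 downward. Of their ratios 14 were negative without drug and 13 with ruxolitinib. Rescaled to TPM the medians were 0.07 and 0.11, each below the median of all genes on that scale, 0.14 and 0.13. The lowest ratio without drug was that of Trp53inp1, a p53-induced nuclear protein, at 13.0 FPKM in the knockout control against 19.2 in the wild-type control, and at 19.6 against 27.6 with ruxolitinib. Bbc3, which encodes the pro-apoptotic protein PUMA, was at 23.6 against 33.2 FPKM without drug and 32.4 against 42.0 with it. Pmaip1, which encodes the pro-apoptotic NOXA, was at 10.8 against 15.4 FPKM without drug and 10.94 against 10.97 with it. Sesn2, a stress-induced sestrin, had the lowest ratio with ruxolitinib, at 30.1 against 43.9 FPKM, and was at 34.6 against 46.8 without drug. Perp, a membrane protein of epithelial junctions and apoptosis, was at 8.95 against 0.924 FPKM without drug. Btg2, an antiproliferative gene that is also an immediate early gene, was the second with ruxolitinib, at 1.71 against 0.628 FPKM. Cdkn1a, which encodes the p53-induced inhibitor p21, was at 332 FPKM in the knockout control against 410.5 in the wild-type control, and at 228 against 209 with ruxolitinib.

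The number of list genes past 1.5-fold depended on the scale, since rescaling to TPM shifts all genes upward in knockout. Of the 11098 genes averaging at least 1 TPM, 8.33% were then called higher without drug and 6.38% with ruxolitinib. In TPM, 3 sensors and loaders passed upward without drug and 1 with ruxolitinib. The counts were 6 and 4 for the mediators and ubiquitin factors, 5 and 4 for the cell-cycle targets, and 2 and 4 for the p53 targets, and 0 genes of these lists passed downward in either pair.

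**Figure D4:**
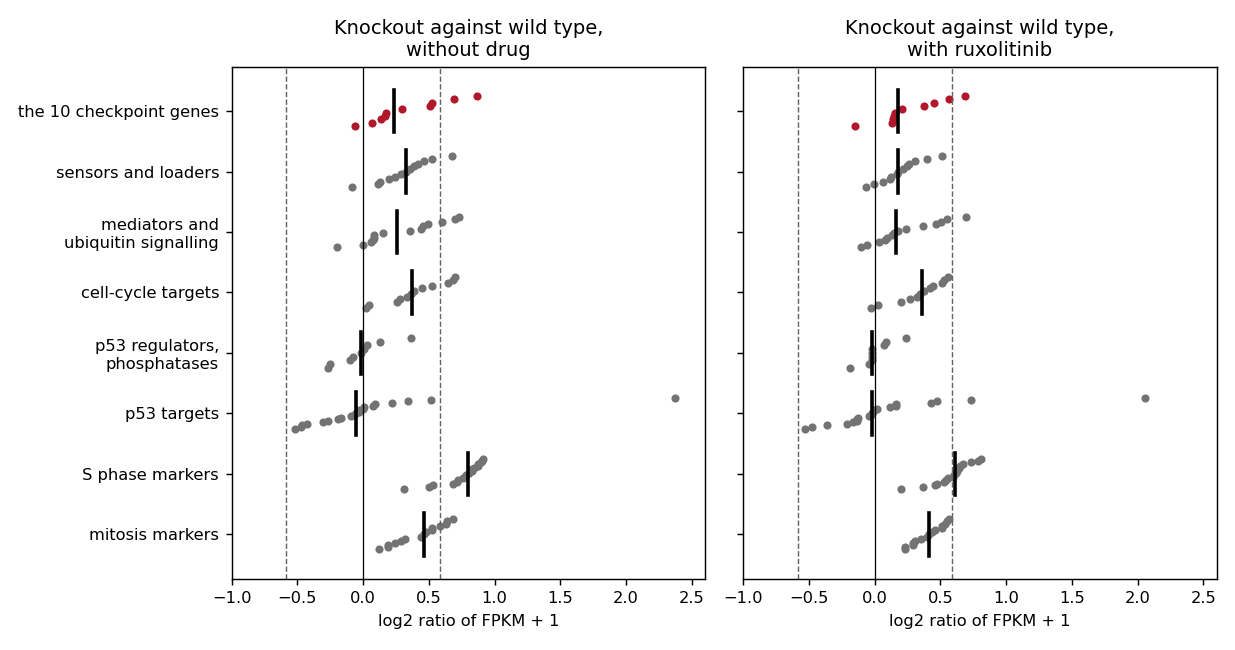
Each point is 1 measured gene and its log2 ratio of FPKM + 1, knockout over wild type, without drug on the left and with ruxolitinib on the right; black bars are list medians and dashed lines mark 1.5-fold. The 10 checkpoint genes have medians of 0.24 and 0.18, below the S phase markers at 0.80 and 0.61, and the p53 lists are centred near 0.

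Ruxolitinib was accompanied by small differences in the members. In knockout cells 0 of the 10 genes reached 1.5-fold in either direction, against 1.67% of measured genes higher and 2.20% lower, and the median log2 ratio was 0.09 with 8 ratios positive. Likewise in wild-type cells 0 genes reached 1.5-fold either way, against 1.05% higher and 2.64% lower among measured genes, and the median was 0.17 with all 10 positive. Of all measured genes 50.8% were positive in knockout and 51.9% in wild type, with medians of 0.00 and 0.01. The wild-type values here share the wild-type control library with the comparison of genotypes without drug. The authors' deposited table marked 0 of the 10 genes for the drug in either genotype, with lowest q-values of 0.232 in knockout and 0.251 in wild type. Of all genes tested there, 9.58% were marked for the drug in knockout and 6.52% in wild type. The S phase markers had medians of 0.06 in knockout and 0.22 in wild type.

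The largest drug ratio in knockout cells was that of Chek2, 0.25, and in wild-type cells that of Clspn, 0.23. Chek2 was at 35.7 FPKM with ruxolitinib and 29.9 in control among knockout cells, and at 32.1 against 28.5 among wild-type cells. Clspn was at 23.3 against 22.4 FPKM in knockout and 14.1 against 11.9 in wild type. For Wee1 the ratios were alike, 0.17 in knockout and 0.20 in wild type. Trp53 had ratios of 0.09 in knockout and 0.19 in wild type. Its target Cdkn1a had the opposite sign, with 228 FPKM with drug against 332 in control in knockout and 209 against 410.5 in wild type. This was the one p53 target past 1.5-fold lower in wild type, and none was that far lower in knockout.

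The drug ratio in knockout minus that in wild type lay between -0.18 for Clspn and 0.08 for Chek2, with a median of -0.08, and was negative for 8 of the 10 genes. None reached 1.5-fold in size, against 1.82% of measured genes higher and 1.14% lower, and the median of all measured genes was -0.01. Of all measured genes 47.4% had a positive difference. Of the 13 sensors and loaders 12 were negative too, with a median of -0.13. All 18 S phase markers were negative, with a median of -0.15. Each difference uses the same wild-type control library, so the signs of these genes are not separate observations.

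**Figure D5:**
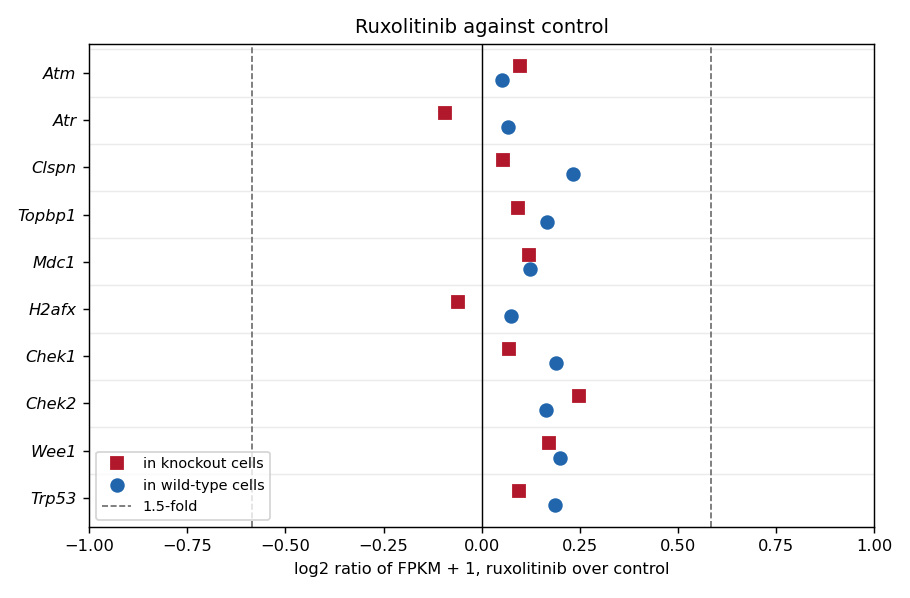
Log2 ratio of FPKM + 1, ruxolitinib over control, for each checkpoint gene in knockout cells (squares) and in wild-type cells (circles), with dashed lines at 1.5-fold. All points lie within 1.5-fold; the 10 wild-type points are above 0, and Atr and H2afx lie below 0 in knockout cells.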

How the data were processed

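RNA-seq was done on 4 libraries in 4 groups, assigned by the titles in the labels. Per the submitters' processing notes STAR and Cuffdiff were used with mm10; versions, gene annotation and strand setting are not stated in the labels. FPKM values per gene symbol are what the authors deposited, with the scaling between libraries unstated. The other deposited table gives the authors' log2 fold change, a test statistic (a score, not used), p-values (not used) and q-values for 6 pairs of libraries, of which 4 were used; its 2 columns of per-library values were left out.

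Log2 ratios of FPKM + 1 were computed here for genes averaging 1 FPKM or more in the libraries. With 1 library per group no p-value was computed. Genes at 1.5-fold or more were counted. The members and lists were chosen with earlier results of these data known. Of the listed symbols 1 was not matched in the table. Genes named beside the members were the 2 highest and 2 lowest of each list without drug, Cdkn1a, Mdm2, Mcm5, Mki67, Tet2 and Jak2, and the 5 profiles nearest to Chek1 and to Trp53; the text describes a part of them. Rif1, Pkmyt1 and Btg2 were named as members of small counts, and Xist as a check of sex, after their values were seen. Fcer1a, Cpa3, Mpo, Pmaip1 and Sesn2 were also named outside that rule, with their values known.

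For depth, 1567 genes having a single transcript of over 1500 bases were used, less 200 bases. Of low values set aside, 73% to 80.1% lay within 0.15 of a whole multiple of 1 fragment's worth, so these are estimates and not counts, and no interval is given. The steps were tested on simulated data. Exon overlaps came from GENCODE M21 and promoters from RefSeq. Gene coordinates come from the deposited table (mm10), written from 1. Python 3.11.15, numpy 2.4.6, pandas 2.3.3 and matplotlib 3.10.9 were used. Alternatives were pseudocounts of 0.1 and 5, TPM, centred ratios, a 2-fold rule, no filter, a filter of 5 FPKM and the authors' fold changes.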

Additional observations from a re-analysis of the deposited data

Results flagged for a closer look

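For Atr and H2afx the ruxolitinib ratio had opposite signs in the genotypes. Atr was at 7.09 FPKM with drug and 7.64 in control in knockout cells, and at 6.36 against 6.03 in wild-type cells, a difference of -0.16 between the log2 ratios. H2afx was at 53.2 against 55.5 FPKM in knockout and 40.8 against 38.7 in wild type, a difference of -0.14. These differences were not tested, since each group has 1 library.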

How the results depend on the processing

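The number of members at least 1.5-fold higher in knockout without drug was 2. It became 1 with a pseudocount of 5, 4 rescaled to TPM and 0 under a 2-fold rule. With ruxolitinib the number was 1. It became 2 with a pseudocount of 0.1, 0 with a pseudocount of 5, 3 rescaled to TPM, 0 under a 2-fold rule and 2 with the log2 fold changes of the authors' deposited table. The members' medians became 0.39 without drug and 0.32 with ruxolitinib under TPM. Of the 11098 genes averaging at least 1 TPM, 8.33% and 6.38% were then called higher. The pseudocount sets how far low genes such as Chek1 move, by its construction. Centring changed no count of members and moved no median by over 0.1. Dropping the filter or raising it to 5 FPKM could not change a member's value, since every member averaged above 5 FPKM. No member called at 1.5-fold changed sign with centring or TPM. The pseudocounts, the filters, the 2-fold rule and the authors' fold changes cannot change the sign of such a ratio. No paired analysis was possible because each group holds 1 library. Counting error at these depths, sex, cell makeup and the cell cycle limit what the genotype differences show.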
